A study of Mus musculus with 3 samples.

Results

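The cytoplasmic ribosomal protein genes are the nuclear genes for the proteins of the ribosome outside the mitochondria. The members were chosen by symbol, as *Rpl* or *Rps* followed by a number and the usual suffixes, together with *Rplp0*, *Rplp1*, *Rplp2* and *Rpsa*, through the RefSeq accession that each array probe carries. Pseudogenes with -ps symbols and the S6 kinase genes were left out. This gave 83 genes on 170 probes, of 20145 genes that could be named and 26582 named probes on the array. Of the 83 members, 51 encode proteins of the large subunit and 32 of the small subunit, 52 were measured by at least 2 probes and 31 by 1. RefSeq holds 89 symbols that fit the rule, and 6 of them had no probe matched here (*Rpl32l*, *Rpl6l*, *Rps12l1*, *Rps23*, *Rps3a2* and *Rps3a3*). *Rps4l* fits the symbol rule but is listed in RefSeq as a pseudogene and was kept.

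RNA was measured on 3 Agilent mouse arrays, 1 per sorted cell population. Cells sorted as ES-Lhx6-GFP+ or as ES-Lhx6-GFP- came from embryoid body aggregates on day 12 (D12) of a protocol that directs embryonic stem (ES) cells toward the medial ganglionic eminence (MGE), the ventral forebrain region where many cortical interneurons are born. The ES cells were the J14 line (129S4/SvJae, given as male), which carries a *Lhx6*-GFP BAC transgene and, per the labels, a viral 692-mCherry enhancer reporter. Both ES-derived populations had received 100 ng/ml Dkk-1, a Wnt antagonist, and 6 nM SAG, an agonist of hedgehog signaling. MGE-GFP+ cells were sorted directly, with no culture, from the MGE of E12.5 embryos (CD1, given as female) that carry the *Lhx6*-GFP BAC. In all 3 populations GFP stands for activity of the *Lhx6* regulatory sequence in the BAC, and the ES-derived populations represent 1 cell line and were sorted from pooled aggregates. The labels do not say how many differentiations or embryos went into a sample. The design asked how far the ES-derived GFP+ cells resemble MGE cells and what separates GFP+ from GFP- cells in the same aggregates. With 1 array per population no test, p-value or SD between replicates could be computed, and every comparison below is between 1 array and 1 other array.

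Ribosomal proteins are made in near equal numbers, since each ribosome takes up about the same set, with the acidic stalk proteins as a known exception. Their messenger RNAs are among the most abundant in growing cells. Most begin with a C followed by a run of pyrimidines, the terminal oligopyrimidine (TOP) motif, through which mTOR signaling controls their translation.

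The promoters of the members were searched for short motifs. RefSeq (GRCm38.p6) start regions were available for 62 of the 83 members, with 74 promoters of 250 bases before to 50 after the annotated start. A C at the annotated start followed by at least 4 further C or T, on the transcript strand, was present in 17.6% of the member promoters in 2.51% of all 32851 promoters in the table and in 2.21% of the 21263 promoters of protein-coding genes. It was present in 13 member genes and in 0 of 75 promoters of mitochondrial ribosomal protein genes. The windows below run from 30 bases before the start to 20 bases from it. The first 5 are members with that start, chosen because they include the member with the lowest ES-Lhx6-GFP+ value relative to ES-Lhx6-GFP- (*Rps10*), a stalk protein gene (*Rplp2*) and a member without a lower value (*Rpl15*). The last 3 lack it at the annotated start and stand at the extremes of the comparisons. Capitals mark the pyrimidine run that begins at the annotated start.
Rps10: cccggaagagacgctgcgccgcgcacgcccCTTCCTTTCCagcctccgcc
Rps18: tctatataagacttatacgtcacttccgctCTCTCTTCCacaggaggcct
Rps6: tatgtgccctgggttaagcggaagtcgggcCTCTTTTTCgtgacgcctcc
Rplp2: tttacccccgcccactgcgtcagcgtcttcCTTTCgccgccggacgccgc
Rpl15: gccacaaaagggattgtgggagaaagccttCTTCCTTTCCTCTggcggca
Rps19: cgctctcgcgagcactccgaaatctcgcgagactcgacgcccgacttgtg
Rpl4: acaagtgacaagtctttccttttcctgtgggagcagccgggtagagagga
Rpl22l1: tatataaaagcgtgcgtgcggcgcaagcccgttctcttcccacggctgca
These windows lie at chr17:27635225-27635274 (minus strand) for *Rps10*, chr17:33955646-33955695 (minus) for *Rps18*, chr4:86857348-86857397 (minus) for *Rps6*, chr7:141447621-141447670 (plus) for *Rplp2* and chr14:18270967-18271016 (minus) for *Rpl15*. They lie at chr7:24884562-24884611 (plus) for 1 of 3 annotated starts of *Rps19*, at chr9:64173357-64173406 (plus) for *Rpl4* and at chr3:28805478-28805527 (plus) for *Rpl22l1*. The count of TOP-like starts depends on where RefSeq places the start, and the starts used in these cells were not measured.

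Over the whole promoter windows and on both strands, CCGGAAG, the core that ETS factors such as GABP recognise, was in 36.5% of member promoters, 8.86% of all promoters and 11.56% of those of protein-coding genes. It was in 34.7% of the promoters of mitochondrial ribosomal protein genes. ATGGCGGC, a YY1 core, was in 6.76% of member promoters, 2.24% of all and 3.02% of those of protein-coding genes. TATAAA was in 9.46%, beside 13.6% and 12.6%. GGGCGG, the GC box, was in 59.5%, beside 35.7% and 46.2%. These are matches of letters and no binding was measured. The 13 members with a TOP-like start had a median log2 difference of -0.59 in ES-Lhx6-GFP+ relative to ES-Lhx6-GFP- cells, beside -0.63 for the 49 members with another start. In MGE-GFP+ relative to ES-Lhx6-GFP- cells the medians were -0.81 and -0.55.

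Member probes gave strong signals on every array. The intensity of a spot is given in scanner units after background subtraction. The median intensity of the 170 member probes was 23800 in ES-Lhx6-GFP-, 13110 in ES-Lhx6-GFP+ and 10680 in MGE-GFP+ cells, while the 75th percentile of all mouse probes was 843, 747 and 576. Levels below are log2 of the intensity minus the log2 of that percentile, so that 0 is the 75th percentile of the array. On this scale the median member probe stood at 4.82 in ES-Lhx6-GFP-, 4.13 in ES-Lhx6-GFP+ and 4.21 in MGE-GFP+ cells. The ES-Lhx6-GFP- array was the highest and the other arrays lay close together. Equal amounts of labelled material were hybridised, so a level is a share of the labelled RNA, and in these sorted bulk samples fewer cells of a type and less RNA per cell cannot be told apart. The array also carries 106 control probes against adenovirus E1A and ERCC spike-in sequences, which mouse RNA lacks. Of the 170 member probes, 162, 158 and 161 exceeded the 95th percentile of these controls, in the same order of arrays. Signals at or below that percentile are called within the control range.

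The ES-Lhx6-GFP+ array differed from the other arrays in its dim signals. On it 90.6% of mouse probes were well above background, against 80.3% for ES-Lhx6-GFP- and 77.1% for MGE-GFP+ cells, and 86 of 106 control probes, against 34 and 34. The part of this in the member results was not tested, and for the members as a whole the count in each comparison is also given over genes above the control range. Spots of the same probe repeated on 1 array had an SD of 0.140 (log2) for ES-Lhx6-GFP+, 0.142 for ES-Lhx6-GFP- and 0.144 for MGE-GFP+ cells, which makes 2 SDs of a difference between arrays about 1.32-fold. Differences between separate cultures, litters or sorts are not part of this spread.

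In ES-Lhx6-GFP+ relative to ES-Lhx6-GFP- cells most ribosomal protein genes were lower. The median log2 difference of the 83 members was -0.59, a 1.51-fold lower level, with an interquartile range from -0.83 to -0.32. Of the 83 members 74 were below 0, where 35.5% of all 18655 genes were. A level at least 1.5-fold lower was found for 44 members, beside 13.1% of all genes, and at least 1.5-fold higher for 3, beside 36.2%. All genes had a median of 0.27, so the members lay 0.86 below them. Among genes above the control range on both arrays, 43 of 79 members were at least 1.5-fold lower, beside 13.8% of 9273 genes, and 0 were higher, beside 16.2%. There the median of the members was -0.60 and that of all genes 0.05. On the scale set by the 50th percentile of the array the median of all genes moved to -0.18 and that of the members to -1.04, and 71 of 83 were at least 1.5-fold lower, beside 28.3% of all genes. After quantile normalization the lower count was 29 of 82, beside 24.7% of all genes.

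Bright genes as a class did not show this difference. The 791 other genes with a mean level at or above the lower quartile of the members, a comparison chosen after the data were seen, had a median of 0.06, and 9.74% of them were at least 1.5-fold lower. Among the members the size varied with brightness without a steady trend, since the dimmest 28 had a median of -0.54, the middle 27 of -0.75 and the brightest 28 of -0.39.

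In MGE-GFP+ relative to ES-Lhx6-GFP- cells, a comparison that shares the ES-Lhx6-GFP- array with the first, the members were lower by a similar amount. The median of 82 members was -0.57, with an interquartile range from -0.81 to -0.34, and 78 were below 0, where 52.6% of all 17025 genes were. A level at least 1.5-fold lower was found for 39 members, beside 27.8% of all genes, and at least 1.5-fold higher for 0, beside 21.6%. All genes had a median of -0.06, so the members lay 0.51 below them. After quantile normalization the lower count was 52, beside 21.81% of all genes. On the scale of the 50th percentile the lower count was 18, beside 19.5% of all genes, which is a share of the members near that of all genes, and the medians were -0.26 for the members and 0.25 for all genes. Above the control range the count was 37 of 79 members, beside 15.6% of 10126 genes, and 0 were higher, beside 26.3%, and the bright other genes had a median of 0.37.

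**Figure D1:**
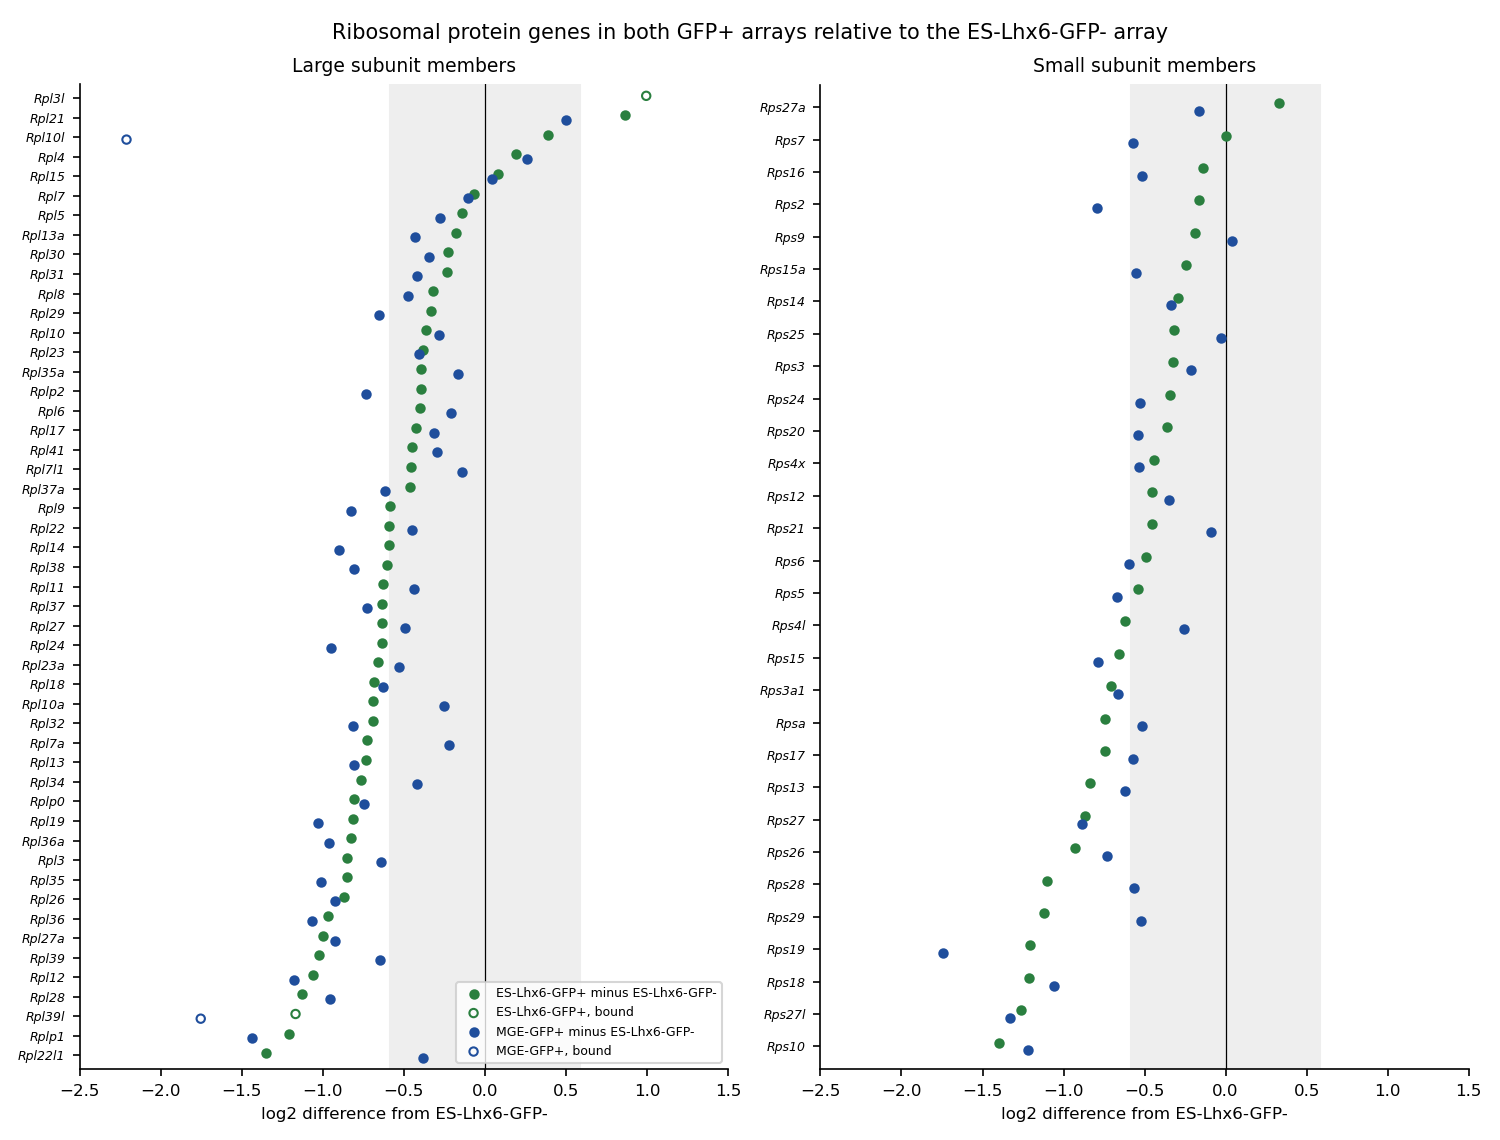
Log2 difference (x axis) of 80 ribosomal protein genes (y axis) in ES-Lhx6-GFP+ (green) and MGE-GFP+ (blue) cells from ES-Lhx6-GFP- cells, with 1 array per population, so no error bar; open points are bounds against a probe not well above background, and the gray band marks less than 1.5-fold. Most points of both colors lie below 0, with 73 of 80 green and 75 of 79 blue points there. Not all 83 members are plotted, and over all members 74 of 83 and 78 of 82 were below 0.

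The ES-Lhx6-GFP- array held the highest level of the 3 for 73 of 82 members, beside 26.8% of all 16884 genes with 3 values. The exceptions included *Rpl10l*, *Rpl15*, *Rpl21*, *Rpl4*, *Rps27a*, *Rps7* and *Rps9*. Both GFP+ arrays were at least 1.5-fold below ES-Lhx6-GFP- for 30 of the 82, beside 10.1% of all genes, and both were lower by more than 2 SDs of repeat spots for 44, beside 13.8%. The count of 30 became 16, beside 12.1% of all genes, with the 50th percentile and 25, beside 12.85%, after quantile normalization. Over probes above the control range ES-Lhx6-GFP- was the highest for 74 of 79 members, beside 26.73% of all genes, and both GFP+ arrays were at least 1.5-fold lower for 29, beside 6.71%. Since both differences subtract the same ES-Lhx6-GFP- array, these counts do not rest on independent measurements.

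The GFP+ populations were compared directly in a comparison that shares an array with each of the others. In MGE-GFP+ relative to ES-Lhx6-GFP+ cells the median of 82 members was -0.04, with an interquartile range from -0.19 to 0.18, and 37 members were above 0, beside 36.4% of all 18580 genes, and 45 below, beside 63.6%. This holds on the scale of the 75th percentile. With the 50th percentile, which is set by dimmer probes, the median of the members moved to 0.71, 59 were at least 1.5-fold higher, beside 43.2% of all genes, and the median of all genes was 0.40. At least 1.5-fold higher were 2 members, *Rps29* and *Rpl22l1*, beside 14.3% of all genes, and at least 1.5-fold lower were 5, beside 43.2%. The lower members included *Rps2* at -0.63, the mean of 2 probes at -1.20 and -0.06. They also included the dim members *Rpl10l* and *Rpl3l*, each with a bound in at least 1 probe. Among genes above the control range 2 of 79 members were higher and 1 lower, beside 21.6% and 15.0% of 8985 genes. For 68 of the 82 the arrays lay within 2 SDs of repeat spots, beside 31.2% of all genes, so the order of these populations is not settled for those members. All genes had a median of -0.36, 0.32 below the members. Whether the members stood above or below the other genes here depended on the genes compared and on the normalization. Their median was 0.14 below that of 8985 genes above the control range. It was 0.27 below that of all genes after quantile normalization and 0.20 below it in the deposited log2 values. With the 50th percentile it stayed above that of all genes, by 0.31. On the main scale the 791 other bright genes had a median of 0.31, beside -0.04 for the members. Of those bright genes 24.5% were at least 1.5-fold higher and 5.44% lower.

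**Figure D2:**
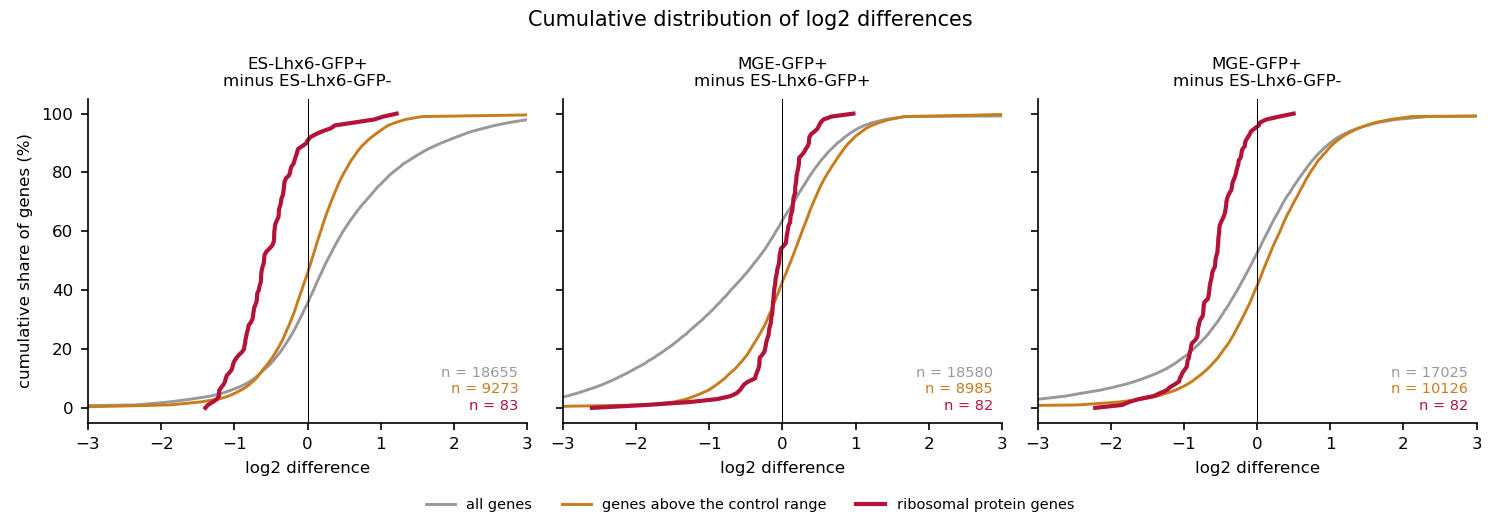
Cumulative share of genes (y axis, percent) with a log2 difference up to the value on the x axis, which is shown from -3 to 3, for the ribosomal protein genes (red), all genes with a value (gray) and genes above the control range on both arrays (orange), 1 panel per comparison of 1 array with 1 array. The red curve lies to the left of both other curves over most of its height in the comparisons with ES-Lhx6-GFP-, with medians of -0.59 and -0.57, and stands near 0 between the GFP+ populations.

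The direction of the median relative to ES-Lhx6-GFP- cells was the same under every setting tried, while the size was not. Over the main scale and 10 alternatives the median of the members ranged from -1.04 to -0.48 in ES-Lhx6-GFP+ and from -0.71 to -0.26 in MGE-GFP+ relative to ES-Lhx6-GFP- cells. Relative to the median of all genes it ranged from -0.92 to -0.49 and from -0.73 to -0.51.

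**Figure D3:**
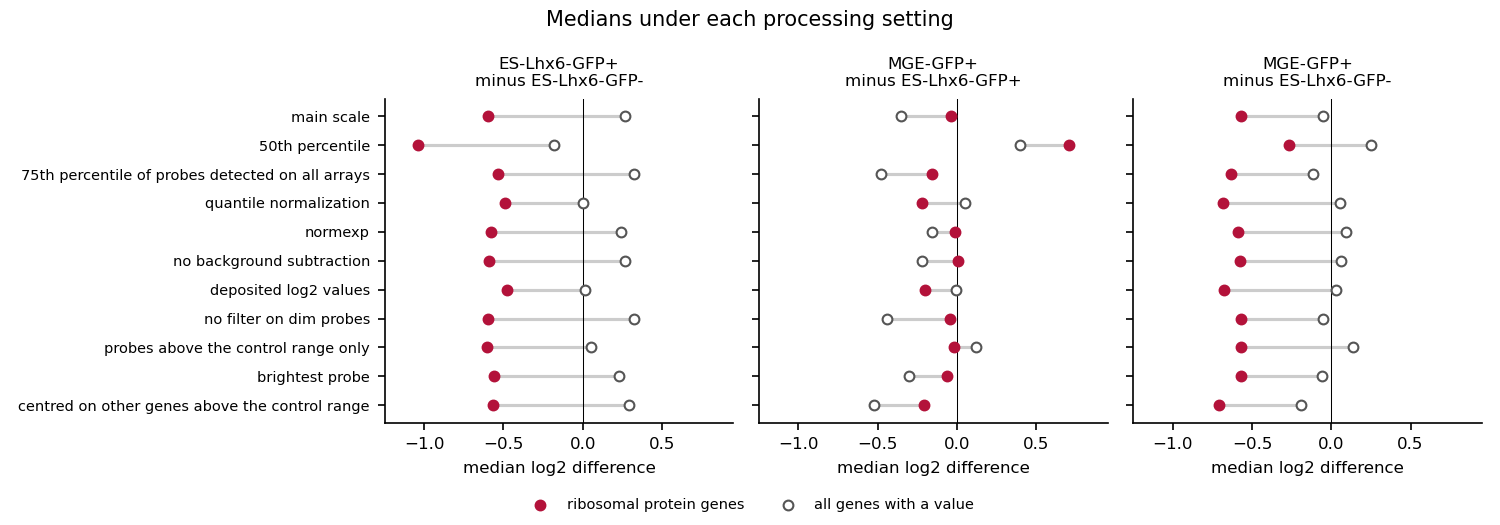
Median log2 difference (x axis) of the ribosomal protein genes (red) and of all genes with a value (open circles) under each of 11 processing settings (y axis), 1 panel per comparison of 1 array with 1 array. The red point lies to the left of the open circle in every row of both comparisons with ES-Lhx6-GFP- cells, and on either side of it between the GFP+ populations.

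Large and small subunit genes had similar medians. In ES-Lhx6-GFP+ relative to ES-Lhx6-GFP- cells the large subunit members had a median of -0.60, with 29 of 51 at least 1.5-fold lower, and the small subunit members -0.52, with 15 of 32, beside 13.1% of all genes. In MGE-GFP+ relative to ES-Lhx6-GFP- cells the medians were -0.62, with 26 of 50 lower, and -0.56, with 13 of 32, beside 27.8% of all genes. Between the GFP+ populations they were -0.07 and 0.01. The members lie on 18 chromosomes. The X-linked members *Rpl10*, *Rpl36a*, *Rpl39* and *Rps4x* had medians of -0.64 in ES-Lhx6-GFP+ and -0.59 in MGE-GFP+ relative to ES-Lhx6-GFP- cells, and -0.004 between the GFP+ populations, of which the labels give the ES line as male and the embryos as female. *Rpl39*, a small protein of the exit tunnel, stood at 3.51 in ES-Lhx6-GFP-, 2.48 in ES-Lhx6-GFP+ and 2.86 in MGE-GFP+ cells. At least 1 of its 3 probes was within the control range on at least 1 array. Its difference between the GFP+ populations was 0.37 over all probes. Over probes above the control range no X-linked member exceeded 0.10 there. *Rpl10*, which completes the large subunit late in its assembly, had differences of -0.36 and -0.28 relative to ES-Lhx6-GFP- cells. *Rpl36a* had -0.83 and -0.96 and *Rps4x* -0.44 and -0.53. On the 50th percentile scale *Rpl10* changed sign in MGE-GFP+ cells, to 0.02.

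The stalk of the large subunit, which recruits the GTPase translation factors, is built from *Rplp0*, *Rplp1* and *Rplp2*. *Rplp1* had levels of 2.92 in ES-Lhx6-GFP-, 1.71 in ES-Lhx6-GFP+ and 1.48 in MGE-GFP+ cells, from intensities of 6381, 2441 and 1607. It was 2.31-fold lower in ES-Lhx6-GFP+ and 2.71-fold lower in MGE-GFP+ than in ES-Lhx6-GFP- cells (log2 -1.21 and -1.44), among the 5 lowest members in both. *Rplp0*, the scaffold of the stalk, had levels of 3.78, 2.98 and 3.04 in the same order, with log2 differences of -0.81 and -0.75 over 3 probes whose differences had SDs of 0.10 and 0.09. *Rplp2* had levels of 5.51, 5.12 and 4.77 and was 1.31-fold and 1.67-fold lower. All 3 stalk genes were highest in ES-Lhx6-GFP- cells.

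*Rpl5* and *Rpl11* form a particle with the 5S ribosomal RNA that also restrains Mdm2. *Rpl11* had levels of 5.01 in ES-Lhx6-GFP-, 4.38 in ES-Lhx6-GFP+ and 4.57 in MGE-GFP+ cells, and was 1.55-fold lower in ES-Lhx6-GFP+ than in ES-Lhx6-GFP- cells (3 probes, SD of the difference 0.06). *Rpl5*, measured by 1 probe, had levels of 5.18, 5.04 and 4.90, all within 2 SDs of repeat spots.

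Among small subunit genes *Rps10* was the lowest in ES-Lhx6-GFP+ relative to ES-Lhx6-GFP- cells. Its levels were 4.73 in ES-Lhx6-GFP-, 3.34 in ES-Lhx6-GFP+ and 3.51 in MGE-GFP+ cells, from intensities of 22430, 7546 and 6573 on 1 probe, with folds of 2.63 and 2.33 below ES-Lhx6-GFP-. *Rps18*, measured by 2 probes, had levels of 3.69, 2.48 and 2.63 and was 2.31-fold and 2.08-fold lower. *Rps19*, a gene mutated in Diamond-Blackfan anemia, had levels of 2.09, 0.89 and 0.35, from intensities of 3595, 1381 and 732, and was 2.31-fold lower in ES-Lhx6-GFP+ and 3.35-fold lower in MGE-GFP+ cells. It was 1 of the 5 lowest members in MGE-GFP+ relative to ES-Lhx6-GFP- cells, and 1 probe measured it.

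*Rps6*, the phosphorylation target of the S6 kinases, had levels of 3.40 in ES-Lhx6-GFP-, 2.91 in ES-Lhx6-GFP+ and 2.81 in MGE-GFP+ cells, 1.41-fold and 1.51-fold lower, over 3 probes. *Rpsa*, also known as the laminin receptor precursor, had levels of 2.58, 1.84 and 2.07, 1.67-fold and 1.43-fold lower, over 4 probes. Both followed the pattern of the members as a whole, and each had at least 1 probe within the control range on at least 1 array. *Rps28*, with levels of 5.90, 4.80 and 5.33, and *Rps29*, with levels of 5.40, 4.28 and 4.88, were more than 2-fold lower in ES-Lhx6-GFP+ cells but 1.48-fold and 1.43-fold lower in MGE-GFP+ cells. *Rpl7a*, with 4 probes, stood at 3.95, 3.22 and 3.73, and its 4 differences between the GFP+ populations had a mean of 0.51 and an SD of 0.04.

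**Figure D4:**
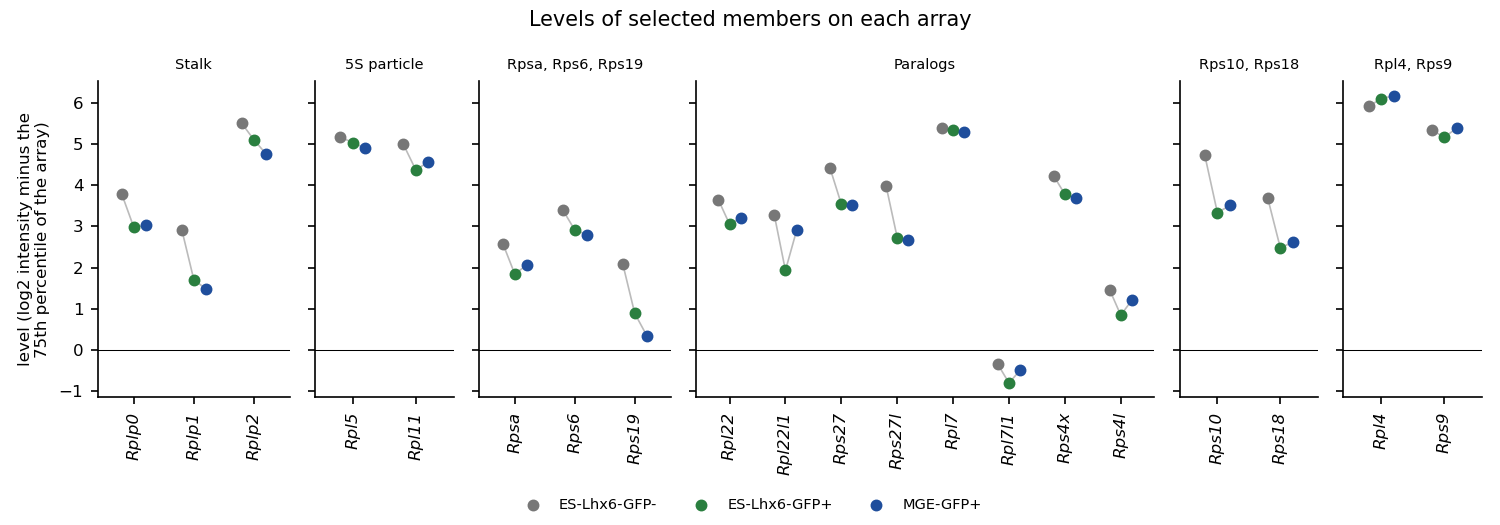
Level (y axis, log2 intensity minus the 75th percentile of the array) of selected ribosomal protein genes (x axis) in ES-Lhx6-GFP- (gray), ES-Lhx6-GFP+ (green) and MGE-GFP+ (blue) cells, 1 array each, so no error bar; levels are to be compared between arrays within a gene, not between genes. *Rplp1*, *Rps10*, *Rps18* and *Rps19* stand highest in ES-Lhx6-GFP- cells, *Rpl4* does not, and *Rpl22l1* is lowest in ES-Lhx6-GFP+ cells at 1.93.

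Paralogs of ribosomal protein genes did not all follow their parent genes. *Rpl22l1*, the paralog of *Rpl22*, had levels of 3.29 in ES-Lhx6-GFP-, 1.93 in ES-Lhx6-GFP+ and 2.90 in MGE-GFP+ cells, from intensities of 8223, 2850 and 4309. Its level in ES-Lhx6-GFP+ cells lay 2.56-fold below that in ES-Lhx6-GFP- cells, and MGE-GFP+ cells exceeded ES-Lhx6-GFP+ cells by 1.96-fold. *Rpl22* stood at 3.65, 3.06 and 3.20, with differences of -0.59 and 0.14 in those comparisons. The paralog thus lay 0.76 below and 0.83 above its parent, on a single probe.

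*Rps27l*, a p53 target, had levels of 3.99 in ES-Lhx6-GFP-, 2.73 in ES-Lhx6-GFP+ and 2.66 in MGE-GFP+ cells, 2.40-fold and 2.52-fold lower. Its parent *Rps27*, over 4 probes, had log2 differences of -0.87 and -0.89, so both genes were highest in ES-Lhx6-GFP- cells. *Rpl7l1*, a nucleolar relative of *Rpl7*, had levels of -0.35, -0.81 and -0.50, and *Rps4l* levels of 1.46, 0.84 and 1.21.

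The tissue-restricted paralogs were dim. *Rpl39l* was well above background in ES-Lhx6-GFP- cells alone, at an intensity of 59.6, and was at least 2.25-fold lower in ES-Lhx6-GFP+ and at least 3.37-fold lower in MGE-GFP+ cells, against the lowest value among detected probes. *Rpl3l*, known from heart and skeletal muscle, was well above background in ES-Lhx6-GFP+ cells alone, at 31.4, and *Rpl10l*, known from testis, had mean intensities of 119, 139 and 9.59 over 2 probes. All of these intensities lay below the 95th percentile of the control probes, which was 208 in ES-Lhx6-GFP-, 377 in ES-Lhx6-GFP+ and 152 in MGE-GFP+ cells.

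Members outside the common pattern fell into bright and dim cases. *Rpl4*, whose 1 probe gave intensities of 51100 in ES-Lhx6-GFP-, 51690 in ES-Lhx6-GFP+ and 41710 in MGE-GFP+ cells, had levels of 5.92, 6.11 and 6.18 and was not lower in either GFP+ population, within 2 SDs of repeat spots. *Rps9* stood at 5.36, 5.17 and 5.40 and *Rpl15* at 4.81, 4.90 and 4.86, also within that spread, although the 2 probes of *Rpl15* had differences with an SD of 0.66 between the ES-derived populations. *Rps25* differed by -0.32 in ES-Lhx6-GFP+ and -0.03 in MGE-GFP+ relative to ES-Lhx6-GFP- cells. The second value is the mean of 2 probes that disagreed, at -0.56 and 0.51. *Rps7* stood at 6.30 in both ES-derived populations and at 5.73 in MGE-GFP+ cells, where it was 1.49-fold lower.

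The members higher by 1.5-fold or more in ES-Lhx6-GFP+ than in ES-Lhx6-GFP- cells, among them *Rpl21* and *Rpl3l*, rested here on probes within the control range. *Rps27a*, which encodes a ubiquitin fused to a small subunit protein, had a mean difference of 0.33, made of -0.35 and -0.32 on the bright probes and 1.66 on a probe with intensities of 97.6 and 273. *Rpl21* was measured by 2 probes that were within the control range in both ES-derived populations, with differences of 1.30 and 0.42.

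Over all members, the 156 probes above the control range on all 3 arrays had medians of -0.58 and -0.57 relative to ES-Lhx6-GFP- cells in ES-Lhx6-GFP+ and MGE-GFP+ cells. The 14 probes within that range on at least 1 array, from 12 genes, had medians of 0.53 and -0.43. Probes of the same gene differed with a pooled SD of 0.46 in ES-Lhx6-GFP+ relative to ES-Lhx6-GFP- cells, and of 0.28 above the control range, where the SD between members was 0.35. In MGE-GFP+ relative to ES-Lhx6-GFP- cells these values were 0.37, 0.30 and 0.35. The spread between probes of a gene was thus nearly as large as the spread between genes, and single members are not well ordered by these arrays.

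The other genes of the translation machinery came from lists of known members. Their counts stand beside 13.1% of all genes at least 1.5-fold lower and 36.2% higher in ES-Lhx6-GFP+ cells, and 27.8% lower and 21.6% higher in MGE-GFP+ cells, both relative to ES-Lhx6-GFP- cells. *Fau*, which encodes a small subunit protein fused to a ubiquitin-like sequence and lies outside the symbol rule, differed by -0.48 in ES-Lhx6-GFP+ and -0.89 in MGE-GFP+ relative to ES-Lhx6-GFP- cells. *Fau* stood at 6.08 in ES-Lhx6-GFP-, 5.60 in ES-Lhx6-GFP+ and 5.19 in MGE-GFP+ cells, highest in ES-Lhx6-GFP- cells.

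The 78 mitochondrial ribosomal protein genes, which serve the separate ribosome of that organelle, had a median of -0.24 in ES-Lhx6-GFP+ and -0.07 in MGE-GFP+ relative to ES-Lhx6-GFP- cells, the second turning to 0.24 on the 50th percentile scale. At least 1.5-fold lower were 13 and 13 of them, beside 13.1% and 27.8% of all genes, and at least 1.5-fold higher 0 and 11, beside 36.2% and 21.6%. The cytoplasmic members lay 0.35 and 0.50 below them, a distance that stayed between 0.22 and 0.36 and between 0.49 and 0.54 over the 11 processing settings tried.

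Initiation factors, 29 genes that bring ribosomes to messenger RNA, had medians of -0.16 in ES-Lhx6-GFP+ and 0.13 in MGE-GFP+ relative to ES-Lhx6-GFP- cells, the latter changing sign to -0.03 in the deposited values and to -0.01 when arrays were centred on other genes above the control range. In MGE-GFP+ cells 6 were at least 1.5-fold lower, beside 27.8% of all genes, and 6 higher, beside 21.6%, neither of them a share above that of all genes. In ES-Lhx6-GFP+ cells 0 were higher, beside 36.2%, and 7 of the 29 were at least 1.5-fold lower, beside 13.1%, among them *Pabpc1*, the poly(A)-binding protein, at -1.05, and the eIF3 subunit genes *Eif3d* and *Eif3k*, at -0.79 each. Elongation factors, 9 genes, had medians of -0.01 and -0.39, the first ranging from -0.46 to 0.15 over the settings, with 0 and 2 at least 1.5-fold lower and 1 and 0 higher. *Eef1a1* stood at 5.38 in ES-Lhx6-GFP-, 5.12 in ES-Lhx6-GFP+ and 5.42 in MGE-GFP+ cells, and *Eef2* at 6.02, 6.30 and 6.25, while *Eef1b2* differed by -0.08 and -0.76 relative to ES-Lhx6-GFP- cells.

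The 36 ribosome biogenesis genes had medians of -0.18 and 0.04, the second changing sign to -0.02 and -0.10 on the scales of the probes detected on all arrays and of other genes above the control range, with 7 and 4 at least 1.5-fold lower and 3 and 4 higher. RNA polymerase I genes, 11 in number, had medians of 0.07, which was -0.37 on the 50th percentile scale, and 0.08, which was -0.06 when centred on other genes above the control range. Other messenger RNAs known to carry a TOP motif, 10 genes, had medians of -0.21 and 0.03, the second turning to as low as -0.18, with 3 and 2 at least 1.5-fold lower and 0 and 1 higher. Among them *Rack1*, a protein that sits on the small subunit, was lower by a log2 difference of -0.77 and -0.53, while *Tpt1* stood at -0.21 and 0.02 and *Naca* at 0.12 and 0.28. The 13 housekeeping genes had medians of -0.09 and -0.04, which ranged from -0.54 to 0.02 and from -0.18 to 0.26 over the settings. In ES-Lhx6-GFP+ relative to ES-Lhx6-GFP- cells these ranges were -0.69 to -0.19 for mitochondrial ribosomal protein genes and -0.61 to -0.06 for initiation factors. They were -0.62 to -0.12 for ribosome biogenesis genes and -0.66 to -0.09 for the other TOP messenger RNAs. For elongation factors in MGE-GFP+ relative to ES-Lhx6-GFP- cells the range was -0.53 to -0.09.

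**Figure D5:**
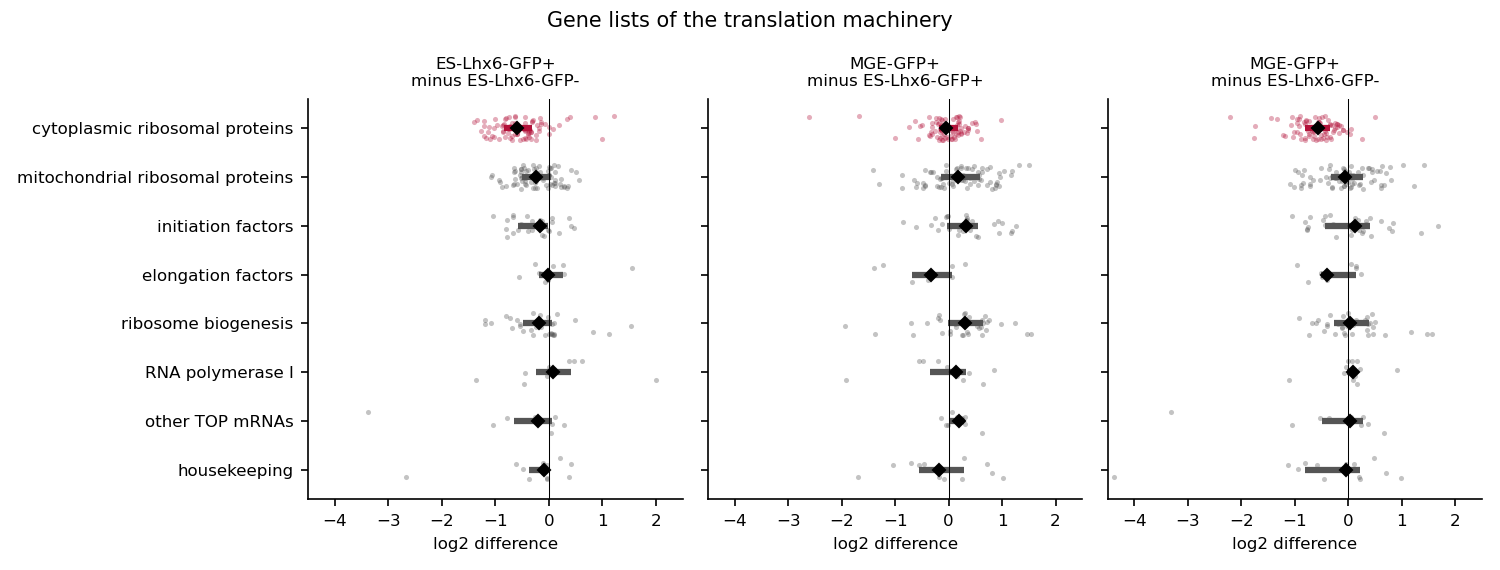
Log2 differences (x axis) of the genes of each list (y axis), as points spread vertically for visibility, with the median as a diamond and the interquartile range as a bar, 1 panel per comparison of 1 array with 1 array. In both comparisons with ES-Lhx6-GFP- cells the cytoplasmic ribosomal proteins have lower medians, -0.59 and -0.57, than mitochondrial ribosomal proteins and housekeeping genes. Their medians also lie below those of the initiation, elongation, ribosome biogenesis, RNA polymerase I and other TOP lists.

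Cell type markers moved with the same contrast and are given beside it. The 14 MGE interneuron markers were all at least 1.5-fold higher than in ES-Lhx6-GFP- cells in both GFP+ populations, beside 36.2% and 21.6% of all genes, with medians of 1.88 and 2.56, and *Lhx6* stood at 2.27 in ES-Lhx6-GFP-, 4.90 in ES-Lhx6-GFP+ and 5.67 in MGE-GFP+ cells. All 14 were above the control range on all arrays, the ES-Lhx6-GFP- array included. Their summed intensity was 40220, 141300 and 187400, with *Lhx6* the brightest in ES-Lhx6-GFP+ cells.

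Markers of neural progenitors and cycling cells were brightest in sum on the ES-Lhx6-GFP- array. Of 6 neural progenitor markers 6 were at least 1.5-fold lower in ES-Lhx6-GFP+ and 5 in MGE-GFP+ than in ES-Lhx6-GFP- cells, beside 13.1% and 27.8% of all genes, with medians of -2.10 and -2.08. Their summed intensity was 48890 in ES-Lhx6-GFP-, 8825 in ES-Lhx6-GFP+ and 8453 in MGE-GFP+ cells, the brightest being *Vim* in the first and *Hes5* in the others, and *Hes1* was within the control range in both GFP+ populations. Of 8 markers of cycling cells 6 and 4 were at least 1.5-fold lower, with medians of -2.54 and -0.63, and their summed intensity was 9573, 2478 and 4388. For markers the control range is read on the mean intensity over the probes of a gene. In ES-Lhx6-GFP+ cells 7 of these 8 were within it by that mean, with *Pcna* the brightest, while 2 of the 8 had a probe above it on both ES-derived arrays. In MGE-GFP+ cells *Top2a* and *Mcm5* were within it, and the median was 1.12 above ES-Lhx6-GFP+ cells. The ribosomal protein genes differed by -0.04 between these populations, and by 0.71 on the 50th percentile scale. Their median minus that of the cycling markers was -1.16 there, ranging from -2.19 to -0.97 over the settings. The part of progenitor and cycling cells in the ribosomal protein result was not tested.

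The 4 oligodendrocyte lineage markers were at least 1.5-fold lower in both GFP+ populations than in ES-Lhx6-GFP- cells, beside 13.1% and 27.8% of all genes. Their summed intensities were 6441 in ES-Lhx6-GFP-, 800 in ES-Lhx6-GFP+ and 661 in MGE-GFP+ cells, with *Olig2* the brightest on each array. Of these *Olig1*, *Sox10* and *Pdgfra* were within the control range in both GFP+ populations, and *Pdgfra* was within it in ES-Lhx6-GFP- cells as well. Of 4 pluripotency markers *Pou5f1*, *Zfp42* and *Dppa5a* were within the control range in both GFP+ populations and above it in ES-Lhx6-GFP- cells. The fourth, *Nanog*, was the brightest of the 4 on all arrays, at levels of 8.22, 8.27 and 8.61. It made up nearly all of the summed intensity of 256700, 231400 and 225200. In MGE-GFP+ cells its signal was 225100, where the median ribosomal protein probe gave 10680. Whether this signal reports *Nanog* RNA was not tested, and it is not read here as a sign of pluripotent cells. Endothelial markers summed to 366, 397 and 526, with *Kdr* the brightest in ES-Lhx6-GFP- and MGE-GFP+ cells and *Pecam1* in ES-Lhx6-GFP+ cells, and microglial markers to 505, 801 and 603, with *Csf1r* the brightest. Within the control range were 3, 4 and 3 of the 4 endothelial markers and 3, 3 and 2 of the 4 microglial markers, in the same order. Erythroid markers summed to 144, 268 and 5928, and in MGE-GFP+ cells *Hbb-y* made up 5629 of this. All erythroid markers were within the control range in both ES-derived populations. The part of these other cell types in the result was not tested.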

How the data were processed

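Total RNA from 3 FACS-sorted populations was amplified, labelled with Cy3 and hybridised to 1-color Agilent mouse arrays, 1 array per population and all on 1 slide. Per the labels a low-input linear amplification kit and a 44K format were used. The study's methods name another amplification and labeling kit and a 60K format, and the files hold 62976 spots. The deposited scanner files hold the intensity of each spot after background subtraction and spatial detrending by Agilent Feature Extraction (10.7.3.1 in the file headers). The deposited value table holds log2 values whose scale the sources used here do not give. They lay within 0.148, 0.147 and 0.212 of quantile-normalised log2 median spot intensities without background subtraction (for ES-Lhx6-GFP+, then ES-Lhx6-GFP-, then MGE-GFP+), with column medians of 7.69, 7.68 and 7.69, with member medians of 13.72, 14.13 and 13.43.

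From the scanner intensities, outlier spots were dropped (135, 137 and 98), no spot was saturated, repeat spots were averaged, and log2 intensity was reduced by the 75th percentile over 55681 mouse probes of the array. A probe not well above background in at least 0.5 of its spots was raised to the lowest normalised value among detected probes, which makes a fold against it a bound, and a probe below background on both arrays gave no difference. Gene values are means over probes, and gene intensities are geometric means over probes. Probes were named through RefSeq (GRCm38.p6). A call is a difference of at least 1.5-fold. With 1 array per group there is no test, and precision is limited by the number of arrays. The steps were tested on simulated arrays with known shifts, built from the ES-Lhx6-GFP- array. These shared the same detected probes, so bounds and unequal dim signals were not part of that test. Python 3.11.15, numpy 2.4.6, pandas 2.3.3 and, for normexp, limma 3.58.1 in R 4.3.3 were used.

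The members, the gene lists and the tests were chosen with earlier results of these data known. Named in each comparison were the 5 highest and 5 lowest members detected on either array compared, the paralogs, the stalk and X-linked members, *Rpsa*, *Rpl5*, *Rpl11*, *Rps6*, *Rps19* and *Rps27a*. Parents of paralogs, the members not highest in ES-Lhx6-GFP- cells and the named genes of other lists were chosen after their values were seen. Alternatives were the 50th percentile, the 75th percentile of probes detected on all arrays, quantile normalisation, normexp (offset 50, on median spot intensity, since the mean was not used here), no background subtraction, the deposited log2 values, no filter on dim probes, probes above the control range, the brightest probe per gene and, added after the data were seen, centring on other genes above the control range. Results on some single genes are not reported here, and counts and medians over lists include them.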

Additional observations from a re-analysis of the deposited data

How the results depend on the processing

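With the 50th percentile the median of the members moved to -1.04 in ES-Lhx6-GFP+ relative to ES-Lhx6-GFP-, 0.71 in MGE-GFP+ relative to ES-Lhx6-GFP+ and -0.26 in MGE-GFP+ relative to ES-Lhx6-GFP- cells. The counts at least 1.5-fold higher became 1, 59 and 1, beside 23.1%, 43.2% and 33.9% of all genes, and those lower 71, 2 and 18, beside 28.3%, 24.6% and 19.5%, and *Rps2* reversed to 0.12 between the GFP+ populations. Relative to all genes, the median in ES-Lhx6-GFP+ against ES-Lhx6-GFP- cells was -0.49 after quantile normalization, -0.49 in the deposited values and -0.66 over probes above the control range. Between the GFP+ populations it was -0.27, -0.20 and -0.14, and in MGE-GFP+ against ES-Lhx6-GFP- cells it was -0.73 after quantile normalization. In ES-Lhx6-GFP+ against ES-Lhx6-GFP- cells quantile normalization gave 29 of 82 lower, beside 24.7% of all genes, and 1 higher, beside 21.4%. The deposited values gave 29 of 82, beside 16.7%, and 0, beside 15.96%, and probes above the control range gave 0 higher. Between the GFP+ populations the higher count was 1 with the 75th percentile of probes detected on all arrays, quantile normalization, the deposited values and the centring added later, beside 11.2%, 26.13%, 18.35% and 10.12% of all genes. The lower count there was 8, 9, 8 and 8 in that order, beside 46.6%, 23.15%, 18.46% and 48.1%, 1 above the control range, beside 15.0%, and 2 with the brightest probe, beside 41.5%. In MGE-GFP+ against ES-Lhx6-GFP- cells the higher count was 1 after quantile normalization and 1 with the brightest probe, beside 23.56% and 21.95%. The lower count there was 52 after quantile normalization, 52 in the deposited values and 53 with the centring added later. All genes had 21.81%, 18.16% and 32.9% lower in that order. The cause of these shifts was not tested. Among the values of named members under these alternatives, 535 differed by less than 1 SD of repeat spots for a difference, 152 differed by more, and 1 that was at least 1.5-fold changed sign. Counting differences of any size, 46 of the 688 values changed sign, 18 of them with the 50th percentile, among them *Rps19* at 0.21, *Rps27a* at 0.25, *Rplp2* at 0.41 and *Rplp1* at 0.52 between the GFP+ populations. Adding probes by the gene name in the scanner files was not run, because the scanner columns used hold no gene names. No paired analysis was possible because each population has 1 array. Dim signals limit the values of *Rpl3l*, *Rpl10l*, *Rpl21* and *Rpl39l*, which lay within the control range on at least 1 array. *Rpl39*, *Rps6*, *Rpsa*, *Rps25* and *Rps27a* also had at least 1 probe within that range on at least 1 array.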

Other observations

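A pair of ribosomal protein pseudogenes with -ps symbols, left out of the members, had named probes. *Rpl34-ps1* differed by -0.34 in ES-Lhx6-GFP+ and -0.27 in MGE-GFP+ relative to ES-Lhx6-GFP- cells, and *Rps15a-ps6* by 0.83 and 0.79. Whether these probes also match a parent gene was not tested, since the probe sequences were not used here.

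*Rpl23* was measured by 1 probe repeated 10 times on each array, beside other probes. Its repeated probe had intensities of 2993 in ES-Lhx6-GFP-, 1479 in ES-Lhx6-GFP+ and 1459 in MGE-GFP+ cells, with SDs between the 10 spots of 0.056, 0.085 and 0.066 on the log2 scale. The differences from ES-Lhx6-GFP- cells were -0.84 and -0.49, while the other probes of the gene gave -0.14 and -0.17 in ES-Lhx6-GFP+ cells and -0.36 each in MGE-GFP+ cells.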
